A study of Nothobranchius furzeri with 16 samples.

Results

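Radial glia and astrocytes are the supporting cells of the brain that take up glutamate, convert it to glutamine, buffer ions and, in fish, also act as neural stem cells. In the adult fish brain the cell bodies of radial glia line the ventricles and their long fibres span the tissue. GFAP and NES are intermediate filament proteins of these cells, GLUL is glutamine synthetase, SOX2 and SOX9 are transcription factors of glia and neural stem cells, and HES5 genes are repressors switched on by Notch signalling, which keeps radial glia from dividing or turning into neurons.

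The genes described here were chosen by symbol, as the rows of the deposited table named GFAP, GLUL, SOX9, SOX2, S100B, FABP7, AQP4, VIM, NES or HES5, with or without an A or B. The rule found 14 of 26739 rows, for 9 of the 10 symbols: 2 rows of GLUL, 4 of HES5, the pair SOX9A and SOX9B, and 1 each of GFAP, NES, S100B, FABP7A, AQP4 and SOX2. It found 0 rows for VIM. The table labels both GLULC and VIML, which lie outside the rule.

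The brains came from adult turquoise killifish (Nothobranchius furzeri) aged 12 to 14 weeks post hatch, from a single hatch, with males and females in both groups. The 8 bortezomib fish were injected into the body cavity with the proteasome inhibitor bortezomib at 500 µM in 1% DMSO. The 8 vehicle fish were given 1% DMSO in salt solution without the drug. Both groups received 10 µl per g of body weight on days 0, 6, 12, 18 and 24 under MS-222 anaesthesia, over a treatment of 4 weeks. Each library is the brain of 1 animal; the sources used here name no sex, strain or library batch for it. Values are TPM, a share of all transcripts that accounts for gene length and sums to 1000000 in each brain, so that levels of different genes can be set side by side. In bulk brain tissue, fewer cells of a type and less RNA per cell cannot be told apart.

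Read totals are unknown, but the size of the steps between low values gave relative depths of 0.869 to 1.11 in bortezomib brains and 0.857 to 1.38 in vehicle brains. In 4 fish, bortezomib brains 6 and 7 and vehicle brains 5 and 6, the summed pituitary marker rows reached 2141 to 6092 TPM, against 10.1 to 21.3 TPM in the other 12, and these 4 are called pituitary-carrying here. Of 18529 rows tested, 901 (4.86%) passed an adjusted p under 0.05, 669 higher (3.61%) and 232 lower (1.25%) in bortezomib brains (limma on log2(TPM + 1), adjusted by Benjamini-Hochberg over all rows tested). The split moved to 535 higher and 386 lower with median-of-ratios scaling, 500 and 397 with upper-quartile scaling and 549 and 563 with quantile normalization.

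SOX9A and GLUL (2 OF 2) fell in bortezomib brains, by less than 1 on the log2 scale, and 10 of the 12 tested rows did not pass. GFAP, S100B and FABP7A, which are abundant in these brains, did not pass in either direction. So 0 rows were called higher and 2 lower, where the same fit called 3.61% and 1.25% of all rows. At an unadjusted p under 0.05, NES was higher and SOX9A, GLUL (2 OF 2) and SOX2 were lower. That cut is loose: DLA, of the Notch list below, had an unadjusted p of 0.0496 and an adjusted p of 0.235 (limma). An adjusted p so far above the unadjusted one means that a sizeable share of all tested rows lay under this cut too. That share is not given, so counts at this cut, here and below, are descriptions only. The 3.61% and 1.25% belong to the adjusted cut and are no measure for these counts. The median log2 fold change of the 12 rows was 0.047, against 0.035 for all tested rows, with 7 values above 0 and 5 below it. Every row that was tested reached 1 TPM in at least 7 fish of each group, so none entered through 1 group alone. AQP4 and GLUL (1 OF 2) lay under the minimum of 1 TPM in 8 fish and were not tested. In all 12 tested rows the ranges of the groups overlapped.

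**Figure D1:**
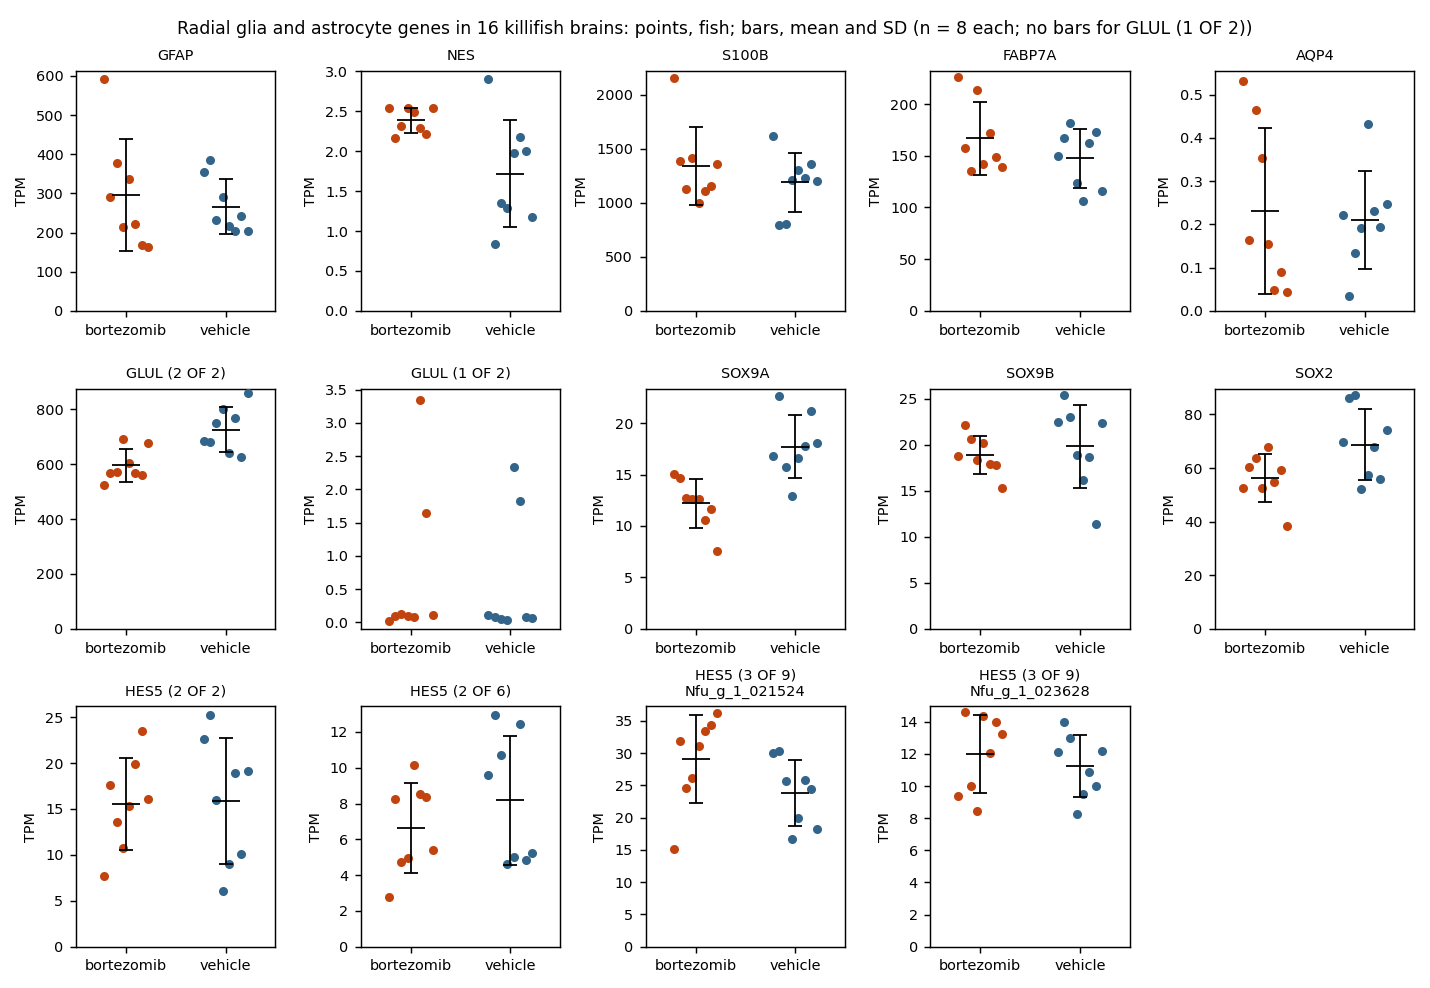
TPM of the 14 rows in each fish (points, bortezomib left and vehicle right; bars, mean and SD over 8 fish, left out for GLUL (1 OF 2)). SOX9A ran from 7.59 to 15.0 TPM in bortezomib brains and 12.96 to 22.6 TPM in vehicle brains, and GFAP from 164 to 592 TPM in bortezomib brains and 203 to 386 TPM in vehicle brains.

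**Figure D2:**
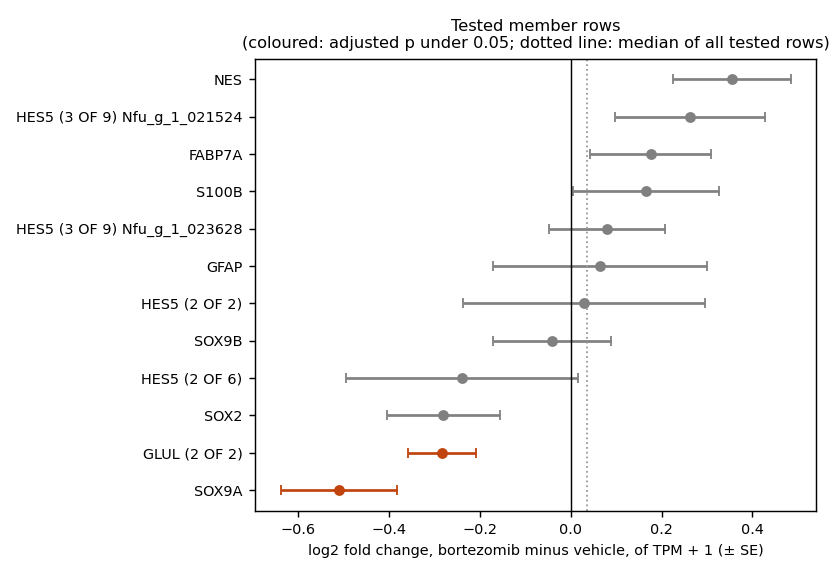
Log2 fold change of TPM + 1, bortezomib minus vehicle, with its standard error, for the 12 tested rows. SOX9A (-0.51) and GLUL (2 OF 2) (-0.28) are the coloured rows that passed, and NES (0.35) lies at the upper end.

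SOX9A, a copy of the transcription factor that marks glia and their precursors, had a lowest, median and highest value of 7.59, 12.6 and 15.0 TPM in bortezomib brains, against 12.96, 17.3 and 22.6 TPM in vehicle brains. Bortezomib brain 8 was the lowest fish, 6 of the 8 bortezomib fish lay below every vehicle fish, and 7 of the 8 vehicle fish lay above every bortezomib fish. The exception was vehicle brain 4 at 12.96 TPM, below bortezomib brains 1 and 2. The mean was 12.2 ± 2.37 TPM in bortezomib brains and 17.7 ± 3.04 TPM in vehicle brains (SD, n = 8 each), a log2 fold change of -0.51 ± 0.13 (SE; limma adjusted p = 0.0308). The call was lost when bortezomib brain 4, 6 or 7 or vehicle brain 2, 7 or 8 was left out (limma adjusted p = 0.0513 to 0.0673). Without the 4 pituitary-carrying brains the log2 fold change was -0.48 (limma adjusted p = 0.144).

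SOX9B, the other copy, gave 15.3, 18.6 and 22.1 TPM as the lowest, median and highest bortezomib fish and 11.4, 20.6 and 25.4 TPM as those of vehicle fish. Bortezomib fish lay inside the vehicle range, and the means of 18.9 ± 2.09 and 19.8 ± 4.48 TPM (bortezomib and vehicle, SD, n = 8 each) differed by less than the spread between fish (log2 fold change -0.04 ± 0.13, limma adjusted p = 0.884). Its estimate ran from -0.14 without vehicle brain 7 to 0.013 without vehicle brain 2. The copies thus stood in another ratio to each other: SOX9A minus SOX9B on the log2(TPM + 1) scale was -0.61 ± 0.18 in bortezomib brains and -0.14 ± 0.44 in vehicle brains (SD, n = 8 each). This difference of -0.47 between the groups passed a two-sided exact permutation test over 12870 splits of the fish (p = 0.00342, and 0.0239 adjusted over the 7 pairs of copies). It kept an adjusted p of at most 0.0479 in each of the 16 exact tests that left out 1 fish. Without the 4 pituitary-carrying brains it was -0.42 (exact permutation, adjusted p = 0.129).

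**Figure D3:**
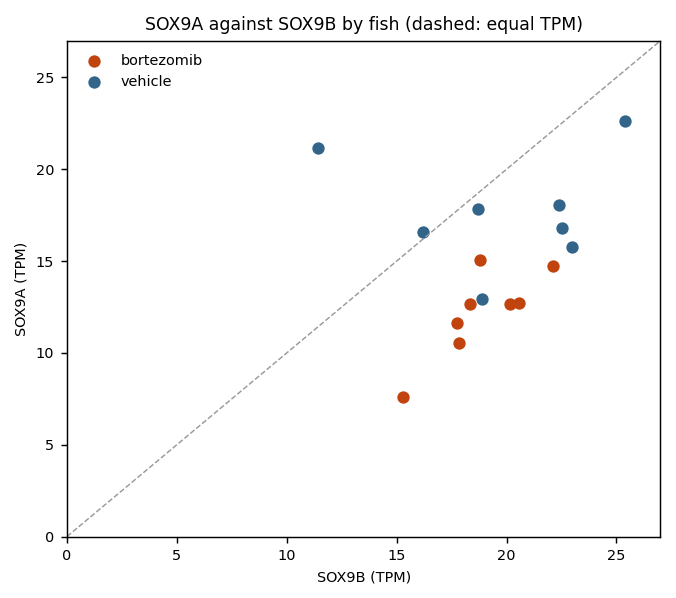
SOX9A against SOX9B in TPM, 1 point per fish (bortezomib and vehicle coloured; dashed line, equal TPM). All 8 bortezomib fish and 6 of the 8 vehicle fish lie below the line; vehicle brain 7, at 21.2 TPM of SOX9A and 11.4 TPM of SOX9B, lies far above it and vehicle brain 5 just above it.

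GLUL (2 OF 2), a copy of glutamine synthetase, the glial enzyme that turns glutamate and ammonia into glutamine, was among the most abundant transcripts of the brain. Its lowest, median and highest values were 523, 569 and 692 TPM in bortezomib brains, against 624.9, 717 and 859 TPM in vehicle brains. Of the bortezomib fish, 6 lay below every vehicle fish, and brains 4 and 8 lay among the vehicle fish. The mean of 595 ± 59.2 TPM in bortezomib brains against 726 ± 81.4 TPM in vehicle brains (SD, n = 8 each) was a log2 fold change of -0.28 ± 0.07 (SE; limma adjusted p = 0.0394). That call was lost without bortezomib brain 1, 2, 3, 5, 6 or 7 or vehicle brain 3, 4, 6 or 8 (limma adjusted p = 0.0544 to 0.0771). It ended too after median-of-ratios scaling (log2 fold change -0.31, adjusted p = 0.0703), upper-quartile scaling (-0.32, adjusted p = 0.0781) and with no filter on low rows (-0.28, adjusted p = 0.0542), all by limma. After quantile normalization the call stayed (-0.34, limma adjusted p = 0.00933). Without the 4 pituitary-carrying brains the log2 fold change was -0.27 (limma adjusted p = 0.139).

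GLUL (1 OF 2), the other row of the rule, was near 0 in most brains and reached at most 0.589% of GLUL (2 OF 2) in any of the 16 fish. Its 4 highest values were 3.35 and 1.64 TPM in bortezomib brains 6 and 7 and 2.33 and 1.83 TPM in vehicle brains 5 and 6. These are the 4 fish with high pituitary markers, and the other 12 fish lay between 0.0192 and 0.130 TPM. Counted in the row's smallest step, which is what 1 read would be worth, the 4 fish had 175, 92, 108 and 99 steps and the others 1 to 7. The match was noticed after the values were seen and was not tested. GLULC, outside the rule, had 2.85 ± 0.752 TPM in bortezomib brains and 3.02 ± 0.972 TPM in vehicle brains (SD, n = 8 each; limma adjusted p = 0.881). The glutamine synthetase signal of these brains thus came nearly all from the single row GLUL (2 OF 2).

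**Figure D4:**
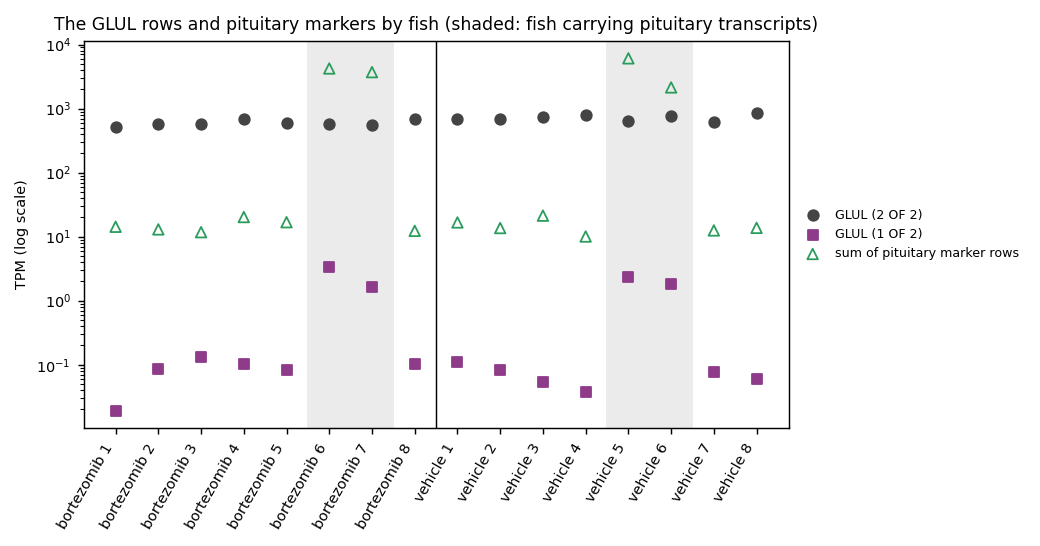
TPM on a log axis of both GLUL rows and of the summed pituitary markers in each fish (bortezomib left and vehicle right of the line; shaded, fish carrying pituitary transcripts). GLUL (2 OF 2) stays between 523 and 859 TPM, while GLUL (1 OF 2) exceeds 1 TPM in the 4 shaded fish, at 1.64 to 3.35 TPM, and is at most 0.130 TPM elsewhere.

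GFAP, the filament protein that defines astroglia, varied more between fish than between groups. Bortezomib fish had 164, 256 and 592 TPM as lowest, median and highest value, and vehicle fish 203, 236 and 386 TPM. Bortezomib brain 1 was the highest of all 16 fish and bortezomib brains 8 and 7 were the lowest, so the bortezomib fish spanned the whole vehicle range. The means were 296 ± 143 TPM in bortezomib brains and 266 ± 70.4 TPM in vehicle brains (SD, n = 8 each; log2 fold change 0.06 ± 0.24, limma adjusted p = 0.901). The estimate lay between -0.097 (without bortezomib brain 1) and 0.17 (without bortezomib brain 8) and at -0.032 after quantile normalization, so no direction can be given. NES, nestin, a filament of neural stem cells, was a minor transcript, at 2.16, 2.40 and 2.54 TPM in bortezomib brains against 0.840, 1.67 and 2.90 TPM in vehicle brains. All 8 bortezomib fish lay above the vehicle median, and 6 vehicle fish lay below every bortezomib fish, while vehicle brain 1 was the highest of all. The log2 fold change of NES, 0.35 ± 0.13, did not pass (limma adjusted p = 0.126), and it was 0.43 with an adjusted p of 0.0423 by limma without that fish. In the other 15 fits that left out 1 fish it did not pass (limma adjusted p of up to 0.212).

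S100B, a calcium-binding protein of glia, was the most abundant of the 14 rows, with 1004, 1256 and 2157 TPM in bortezomib brains and 800.0, 1221 and 1619 TPM in vehicle brains. The highest fish of each group was brain 1, and the groups overlapped from 1004 to 1619 TPM (log2 fold change 0.17 ± 0.16, limma adjusted p = 0.577). FABP7A, a brain lipid-binding protein of radial glia, had 135, 153 and 226 TPM in bortezomib brains and 107, 156 and 182 TPM in vehicle brains. Bortezomib brains 1 and 4 lay above all vehicle fish and the medians were close (log2 fold change 0.18 ± 0.13, limma adjusted p = 0.471). AQP4, the water channel of mammalian astrocyte end-feet, was between 0.0428 and 0.5305 TPM in bortezomib brains and between 0.0343 and 0.433 TPM in vehicle brains. In steps of 1 read that is 1 to 11 in bortezomib brains and 1 to 8 in vehicle brains, the groups overlapped, and no test was made. Of the markers that define the label, GFAP, GLUL, S100B, FABP7A, SOX2 and SOX9 were thus present in every brain, and AQP4 was near 0 in all of them.

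SOX2, a factor of neural stem cells and glia, gave 38.5, 57.0 and 67.8 TPM as lowest, median and highest bortezomib fish and 52.2, 68.7 and 87.2 TPM as those of vehicle fish. All 8 bortezomib fish lay below the vehicle median and 4 vehicle fish lay above every bortezomib fish. The log2 fold change of -0.28 ± 0.12 did not pass the adjustment (limma adjusted p = 0.203).

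The 4 HES5 rows had no common direction, and 0 of 4 passed by limma, in either direction and also at an unadjusted p under 0.05. Rows with near-identical sequence can share reads, and 2 of the rows carry the same symbol, HES5 (3 OF 9), so their separate values are uncertain. HES5 (3 OF 9) with the identifier Nfu_g_1_021524 was the highest, at 15.2, 31.5 and 36.2 TPM in bortezomib brains against 16.6, 25.0 and 30.3 TPM in vehicle brains. In that row 5 bortezomib fish exceeded the highest vehicle fish, and bortezomib brain 1 lay below them all (log2 fold change 0.26 ± 0.17, limma adjusted p = 0.374). The second HES5 (3 OF 9) row, Nfu_g_1_023628, had 8.43, 12.7 and 14.6 TPM in bortezomib brains and 8.26, 11.5 and 14.0 TPM in vehicle brains (0.08 ± 0.13, adjusted p = 0.7503 by limma; -0.00095 without the 4 pituitary-carrying brains). Its groups covered nearly the same range. HES5 (2 OF 2) had 7.75, 15.7 and 23.4 TPM in bortezomib brains and 6.12, 17.5 and 25.2 TPM in vehicle brains, and its estimate of 0.03 ± 0.27 lay between -0.13 and 0.15 over the 16 fits that each dropped 1 fish (limma adjusted p = 0.959 with all fish). HES5 (2 OF 6), the lowest, had 2.78, 6.84 and 10.1 TPM in bortezomib brains and 4.65, 7.42 and 12.9 TPM in vehicle brains (log2 fold change -0.24 ± 0.26, limma adjusted p = 0.617; -0.33 without bortezomib brain 5 and -0.11 without bortezomib brain 1).

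Among the 6 pairs of HES5 rows, 1 differed in its ratio between the groups. HES5 (2 OF 6) minus HES5 (3 OF 9) Nfu_g_1_021524 on the log2(TPM + 1) scale was -2.01 ± 0.30 in bortezomib brains and -1.51 ± 0.37 in vehicle brains (SD, n = 8 each), a difference of -0.50 (two-sided exact permutation p = 0.0118, adjusted p = 0.0413 over 7 pairs). The call was lost with a pseudocount of 0.1 (adjusted p = 0.0571, exact permutation). It also ended when bortezomib brain 3, 4, 6, 7 or 8 or vehicle brain 1, 2, 3, 4, 6 or 8 was left out (exact permutation, adjusted p = 0.0522 to 0.0827), and without the 4 pituitary-carrying brains (adjusted p = 0.129). The other 5 pairs had adjusted p of 0.241 to 0.797 (exact permutation).

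The members did not vary as a single group from fish to fish. Over the 16 fish, with each value centred on the mean of its own group, 7 of 55 pairs of rows passed a two-sided permutation test adjusted over the pairs, and 6 of these were the pairs among HES5 rows. Their Pearson r was 0.70 to 0.82 and their Spearman rho 0.70 to 0.77 (n = 16, permutation adjusted p = 0.0055 to 0.0231 for r and 0.0273 to 0.0310 for rho). Without the 2 fish farthest from the median the r of these pairs was 0.59 to 0.74. How often pairs of other rows reach such values was not computed, so the count of pairs is a description only. Rows that share reads, as these HES5 rows may, can vary together, and this was not tested. Vehicle brain 2 was the highest and vehicle brain 4 the lowest vehicle fish in all 4 HES5 rows. The seventh pair was SOX2 with SOX9B (r = 0.74, rho = 0.79, permutation adjusted p = 0.00825 for r and 0.0273 for rho), with r = 0.83 within bortezomib brains, 0.76 within vehicle brains and 0.82 without the 2 farthest fish. After median-of-ratios scaling that pair gave r = 0.68 (permutation adjusted p = 0.0851). With the 4 pituitary-carrying brains left out, 1 of the 7 pairs passed, HES5 (2 OF 2) with HES5 (3 OF 9) Nfu_g_1_023628 (r = 0.83, permutation adjusted p = 0.0291), and the r of the other 6 was 0.69 to 0.80 (permutation adjusted p = 0.0566 to 0.119). GFAP passed with none of the other rows: its r was 0.54 with SOX9A, 0.24 with S100B, 0.30 with FABP7A and -0.45 with GLUL (2 OF 2) (n = 16, permutation adjusted p of 0.176 or more). Bortezomib brain 1 was the highest bortezomib fish in GFAP, S100B, FABP7A, AQP4 and SOX9A, and the lowest in both GLUL rows and 3 HES5 rows.

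**Figure D5:**
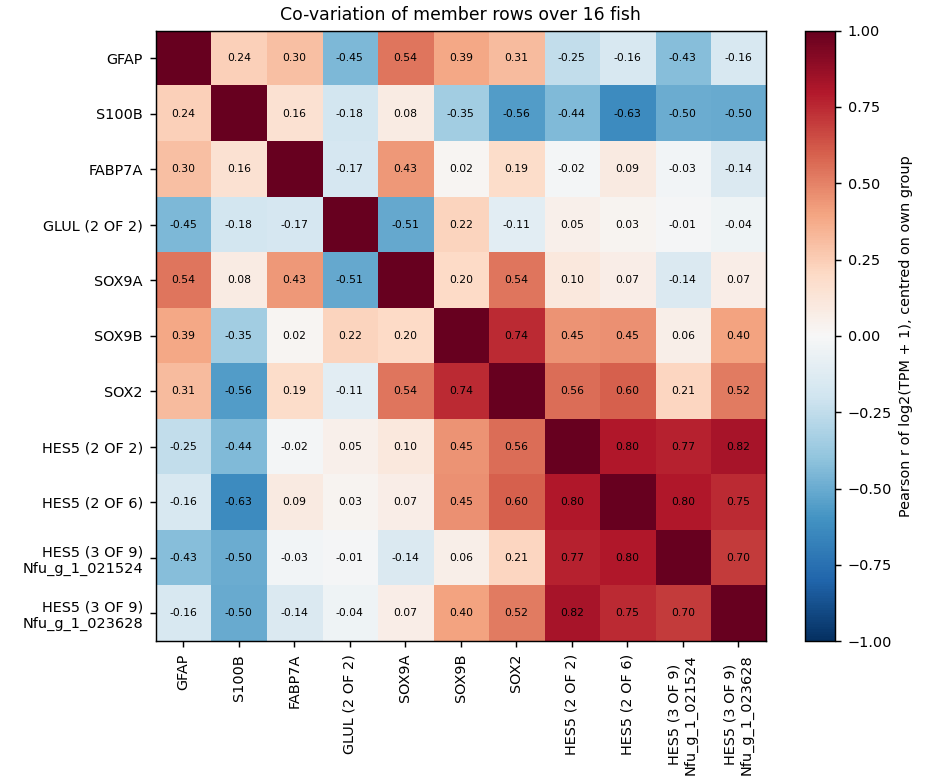
Pearson r over 16 fish between the 11 tested rows with a mean of at least 5 TPM, on log2(TPM + 1) centred on each group's mean. The 4 HES5 rows form a block of r from 0.70 to 0.82, SOX2 and SOX9B stand at 0.74, and S100B has values of -0.44 to -0.63 with the HES5 rows, none of which passed.

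Among 12607 other named rows, those whose values over the 16 fish, centred on each group's mean, were most like GFAP were NBL1 (r = 0.92), SLC25A20 (0.87), TPD52 (0.86), TALDO1 (0.86) and PSMB6 (0.84). PSMB6, a proteasome subunit, was itself higher, at 259 ± 49.6 TPM in bortezomib brains and 136 ± 12.7 TPM in vehicle brains (log2 fold change 0.91, limma adjusted p = 6.23e-05). For GLUL (2 OF 2) they were EIF2D (0.85), TPH1A (0.82), PHYHIPLA (0.80), ANKRA2 (0.79) and OLA.15822 (0.78). For SOX9A they were PHLPP1 (0.86), PARP4, OLA.18948, MYH9 (1 OF 2) and GALNT10 (1 OF 2) (each 0.84 to 0.85), and for SOX9B they were PI4K2A (0.93), SLC24A4B (0.92), SLC24A3 (1 OF 2) (0.91), ANKRD13C (1 OF 2) (0.91) and ATP6V1BA (0.91). These are the highest of many values and are given as a description, with no test.

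Of 39 tested rows of other astroglia and radial glia genes 0 were called higher and 1 lower by limma, where the fit called 3.61% and 1.25% of all rows. At an unadjusted p under 0.05, 7 were higher and 3 lower, and the median log2 fold change was 0.061. Some rows that did not pass had larger estimates than the called ones: SLC1A2B, a glutamate transporter, was at 0.97 ± 0.43 (limma adjusted p = 0.205) and KCNJ10 (1 OF 2), a potassium channel, at 0.69 ± 0.21 (limma adjusted p = 0.0730). KCNJ10 (2 OF 2), the more abundant copy at 153 TPM in bortezomib and 147 TPM in vehicle brains, was at 0.08 ± 0.14 (limma adjusted p = 0.766). Others leaned down, such as ENTPD2B at -0.36 ± 0.16 and MFGE8 (2 OF 2) at -0.32 ± 0.11 (limma adjusted p = 0.207 and 0.104). These rows were picked after their values were seen. The row called lower was ATP1B2A, a subunit of the sodium pump, at 200.0 ± 18.9 TPM in bortezomib brains and 246 ± 28.7 TPM in vehicle brains (SD, n = 8 each; log2 fold change -0.29 ± 0.08, limma adjusted p = 0.0362). That call was lost without any 1 of 11 fish, bortezomib brains 1, 4, 5, 6 and 7 and vehicle brains 1, 2, 3, 6, 7 and 8 (limma adjusted p of up to 0.0775), under upper-quartile scaling (adjusted p = 0.0551) and without the 4 pituitary-carrying brains (adjusted p = 0.0839). The glutamate and glutamine list, which holds the transporters and enzymes around glutamine synthetase, had 0 of 23 rows called (3 higher and 1 lower at an unadjusted p under 0.05, limma). Its lowest p was that of GAD2, which makes GABA, at 101 ± 23.7 TPM in bortezomib brains and 58.9 ± 26.4 TPM in vehicle brains (limma adjusted p = 0.0654, and 0.0343 to 0.0411 without bortezomib brain 3 or vehicle brain 5 or 6).

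Of 38 tested Notch pathway rows 0 were higher and 3 lower in bortezomib brains by limma (0 higher and 8 lower at an unadjusted p under 0.05; median log2 fold change -0.12), against 1.25% of all rows called lower. HER9, a Hes-type repressor, had 11.2 ± 1.35 TPM in bortezomib brains and 15.1 ± 2.03 TPM in vehicle brains (SD, n = 8 each; log2 fold change -0.40 ± 0.09, limma adjusted p = 0.0192). The most abundant row of HEY1 (1 OF 2), a Notch-induced repressor, had 29.5 ± 2.79 TPM in bortezomib brains against 38.7 ± 6.16 TPM in vehicle brains (-0.37 ± 0.09, limma adjusted p = 0.0289). The other rows of that symbol, at -0.48 ± 0.15 and 0.08 ± 0.27, did not pass (limma adjusted p = 0.0793 and 0.896). ID3, an inhibitor of neurogenic factors, had 42.5 ± 3.65 TPM in bortezomib brains against 50.2 ± 3.12 TPM in vehicle brains (-0.24 ± 0.06, limma adjusted p = 0.0363). HER9 and ID3 are in this list by symbol, and whether Notch controls them in these brains was not tested. The HEY1 call was lost without bortezomib brain 4, 5 or 6 or vehicle brain 3 or 8, and the ID3 call without bortezomib brain 2, 5, 6 or 7 or vehicle brain 1, 2, 3, 5, 7 or 8 (limma adjusted p = 0.0518 to 0.0758 over both). Of 24 rows of progenitor and neurogenic factors 0 were higher and 2 lower (0 higher and 4 lower at an unadjusted p under 0.05, limma; median -0.16). The fit called 3.61% of all rows higher and 1.25% lower. NR2E1, a nuclear receptor that maintains neural stem cells, had 5.62 ± 0.617 TPM in bortezomib brains and 7.76 ± 0.852 TPM in vehicle brains (-0.40 ± 0.08, limma adjusted p = 0.0115, and 0.0394 without the 4 pituitary-carrying brains). NEUROG1, a proneural factor, had 1.49 ± 0.431 TPM in bortezomib brains and 2.40 ± 0.397 TPM in vehicle brains (-0.46 ± 0.11, limma adjusted p = 0.0275), a call that ended without bortezomib brain 4 or 6 or vehicle brain 2 or 7 (adjusted p = 0.0507 to 0.0645). Without the 4 pituitary-carrying brains the calls of HER9, HEY1 (1 OF 2), ID3 and NEUROG1 ended as well (limma adjusted p = 0.0870, 0.0703, 0.181 and 0.111).

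Filament, reactivity and proliferation genes added few calls, beside 3.61% of all rows called higher and 1.25% called lower. Of 25 rows of other intermediate filaments and their linkers, 1 of the 2 NEFH rows (Nfu_g_1_022000), a neurofilament, was lower, and 0 were higher (2 higher and 2 lower at an unadjusted p under 0.05, limma). That row is a minor one, at 0.593 ± 0.374 TPM in bortezomib brains and 2.26 ± 1.04 TPM in vehicle brains (log2 fold change -1.01 ± 0.18, limma adjusted p = 0.00355). Its vehicle fish, all at 1.19 TPM or more, met the filter of 1 TPM in 8 fish by themselves, so its call is a description only. Bortezomib fish lay at 0.164 to 1.27 TPM. The abundant NEFH row did not pass, at 224 ± 46.8 TPM in bortezomib and 210 ± 46.4 TPM in vehicle brains (0.10 ± 0.15, limma adjusted p = 0.727). Of 34 rows of glial reactivity and cytokine signalling 0 were higher and 2 lower (3 higher and 5 lower at an unadjusted p under 0.05, limma). These were CTGFA, at 9.61 ± 2.24 TPM in bortezomib brains and 17.6 ± 3.15 TPM in vehicle brains, and CYR61, at 7.40 ± 1.34 TPM in bortezomib brains and 15.9 ± 5.64 TPM in vehicle brains, secreted matrix proteins that many cell types make (limma adjusted p = 0.00240 and 0.00578, and 0.0501 and 0.0686 without the 4 pituitary-carrying brains). Of 23 proliferation rows, RRM2B among them through its suffix, 0 were called (0 higher and 3 lower at an unadjusted p under 0.05, limma). CCND1, a cyclin, had the lowest p (log2 fold change -0.24 ± 0.09, limma adjusted p = 0.142).

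Marker rows of other cell types moved beside these results, and their part in them was not tested. Each list below holds few rows, and the fit called 3.61% of all rows higher and 1.25% lower. Of 25 neuron marker rows 2 were higher, SNAP25 (2 OF 2) (log2 fold change 0.58 ± 0.11, limma adjusted p = 0.00798) and SYPB (0.37 ± 0.10, adjusted p = 0.0430), and 0 lower (11 higher and 0 lower at an unadjusted p under 0.05). The summed level was 5580 to 6413 TPM in bortezomib brains and 4094 to 5573 TPM in vehicle brains, ranges that nearly met. Large parts of it came from the SNAP25 rows (means of 1264 and 819 TPM in bortezomib, 976 and 551 TPM in vehicle brains) and the STMN2 rows (708 and 876 TPM in bortezomib, 571 and 794 TPM in vehicle brains). How often sums of other rows separate the groups was not computed, so these ranges are a description only. SYPA, the more abundant copy of SYPB, did not rise, at 452 ± 35.8 TPM in bortezomib brains and 478 ± 31.7 TPM in vehicle brains (-0.08 ± 0.06, limma adjusted p = 0.435). Without the 4 pituitary-carrying brains the SYPB call ended (limma adjusted p = 0.0789). It also ended without any 1 of 11 fish, all but bortezomib brains 3 and 8 and vehicle brains 1, 3 and 5 (limma adjusted p of up to 0.0848). Of 19 oligodendrocyte rows MAG was higher (0.76 ± 0.20) and FA2H lower (-0.65 ± 0.16), with limma adjusted p of 0.0404 and 0.0287. At an unadjusted p under 0.05, 1 row of that list was higher and 6 lower, the myelin genes MBPA (-0.54 ± 0.15, limma adjusted p = 0.0533) and PLP1B (-0.46 ± 0.13, limma adjusted p = 0.0572) among the lower, and the median was -0.15. The summed level was 6112 to 11324 TPM in bortezomib brains and 8014 to 14406 TPM in vehicle brains. The MAG call was lost without bortezomib brain 1, 2, 4, 5, 6 or 7 or vehicle brain 2, 3, 7 or 8, and the FA2H call without bortezomib brain 2 or 5 or vehicle brain 3 or 4 (limma adjusted p of up to 0.0824 and 0.0538), and both without the 4 pituitary-carrying brains (adjusted p = 0.0698 and 0.0578). Of 16 vessel and pericyte rows RGS5B, a pericyte gene, was lower (-0.64 ± 0.10, limma adjusted p = 0.00132) and 0 were higher (2 higher and 2 lower at an unadjusted p under 0.05), at a summed 405 to 601 TPM in bortezomib brains and 469 to 576 TPM in vehicle brains. RGS5B is the minor copy, at 7.89 ± 1.30 TPM in bortezomib brains and 12.7 ± 1.30 TPM in vehicle brains. The other copy, RGS5A, leaned the other way, at 113 ± 28.5 TPM in bortezomib brains and 87.2 ± 16.9 TPM in vehicle brains (0.36 ± 0.16, limma adjusted p = 0.208). Of the 17 microglia and myeloid, 15 meninges and connective tissue, 7 ependyma and choroid plexus, 6 pituitary and 3 blood rows, 0 passed by limma (0, 0, 1, 2 and 1 higher and 2, 3, 1, 0 and 2 lower at an unadjusted p under 0.05). Of the ependyma rows, RSPH4A, a gene of motile cilia, was at -0.30 ± 0.09 (limma adjusted p = 0.0780), and passed as lower under median-of-ratios, upper-quartile and quantile scaling (limma adjusted p = 0.0420, 0.0469 and 0.0454). The summed microglia and myeloid rows lay at 403 to 899 TPM in bortezomib brains and 369 to 796 TPM in vehicle brains. Much of that sum was APOEB, at 351 ± 99.9 TPM in bortezomib and 344 ± 85.0 TPM in vehicle brains, which is also in the astroglia list. The sum therefore does not measure microglia alone. CD68, another row of that list, reached 127 TPM in its highest bortezomib fish and 30.2 TPM in its highest vehicle fish. Of 15 glucocorticoid responsive rows, a list taken because glutamine synthetase is a classic hormone-induced gene in mammals, DUSP1 and CEBPD were lower and 0 higher (3 higher and 6 lower at an unadjusted p under 0.05, limma; median log2 fold change -0.26). The list had no common direction. The 3 higher were ZBTB16A (0.58 ± 0.19), PDK4 (0.34 ± 0.15) and NR3C1 (3 OF 3) (0.60 ± 0.28), with limma adjusted p of 0.0928, 0.189 and 0.233. FKBP5 was at 1.28 ± 0.85 (limma adjusted p = 0.397). A link of these rows to GLUL was not tested. DUSP1, a phosphatase, averaged 7.13 ± 2.64 TPM in bortezomib brains and 24.4 ± 15.6 TPM in vehicle brains (limma adjusted p = 0.0108), and CEBPD, a transcription factor, 49.4 ± 18.6 TPM in bortezomib brains and 161.9 ± 97.3 TPM in vehicle brains (limma adjusted p = 0.0253). The groups overlapped in both rows, with CEBPD at 30.5 to 81.2 TPM in bortezomib brains and 40.3 to 285 TPM in vehicle brains. Both calls were lost without the 4 pituitary-carrying brains (limma adjusted p = 0.0736 and 0.172), and that of CEBPD also without bortezomib brain 6 or vehicle brain 7 (adjusted p of up to 0.0539).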

How the data were processed

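The authors deposited 1 table of TPM values for 16 fish, and each column summed to 1000000. Of the tools, bcl2fastq (2.20.0.422) and STAR stand in the submitters' processing notes, and the sources used here do not give the counter, build or annotation. Per the labels' protocols, RNA came from 150 µl of brain homogenate. Columns were matched to fish by treatment and replicate number, and 0 columns were left unmatched. None of the file's identifiers matched the RefSeq gene table (0 matches), so no coordinates are given.

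The 18529 rows that reached 1 TPM in 8 or more fish entered limma 3.58.1 (R 4.3.3, intensity trend) on log2(TPM + 1), with no rescaling and no covariate. A fold change on this scale understates changes of low rows. P-values are two-sided and adjusted over all rows tested. On simulated data for this comparison (18529 rows, 200 changed), 59% of changes of 0.5 and 94% of changes of 1 (log2) were called, with 16 false calls. These 16 were a larger share of the calls than the threshold of 0.05 aims for. The simulated noise was normal and independent between rows, and changes were placed only in rows well above the 1 TPM filter. These rates therefore may not hold for low rows such as NES or for variation that rows of a brain share.

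Copies were compared by exact permutation of the log2 ratio per fish, and pairs of rows by 100000 permutations within groups (numpy 2.4.6, scipy 1.17.1). Fish whose summed pituitary markers exceeded 5 times the median were taken as pituitary-carrying. The values of AQP4 and GLUL (1 OF 2) were read as multiples of a step, and all lay within 0.05 of a whole multiple. A set rule named up to 4 called rows of each of 16 gene lists, or the row with the lowest p if none was called. It also named the 5 rows most like each tested GFAP, GLUL and SOX9 row. SPI1A, POMCB, SLC4A1A and COL1A2, the lowest-p rows of the microglia, pituitary, blood and meninges lists, are named only here. Other uncalled rows, such as SYPA, RGS5A, MBPA and CD68, were picked outside that rule with their values known. The members and lists were chosen with earlier results of these data known. Deviations of same-numbered fish of the groups correlated at -0.24 to 0.41 over 8 pairs (median 0.056), with 3 above 0.1, so no steady pairing was seen. Numbers were not used as pairs in the main fit, and a fit with the number as a block is given below.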

Additional observations from a re-analysis of the deposited data

Results flagged for a closer look

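S100B in bortezomib brain 1 stood at 2157 TPM, far above the next bortezomib fish at 1414 TPM: this gap was 0.644 of the range of the 8 bortezomib fish. The same fish had the highest GFAP of all 16 fish, 592 TPM. It was the only such fish among 28 groups of 8 that were checked (14 rows in each treatment), and chance marks about 1 in 20 groups. Without it the log2 fold change of S100B was 0.062, against 0.17 with all fish.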

How the results depend on the processing

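Counts over all rows, of the 14 members, and of the 16 other lists moved with the processing. The lower calls over all rows were 386 after median-of-ratios scaling, 397 after upper-quartile scaling and 563 after quantile normalization, against 232 (with 535, 500 and 549 higher, against 669). In members, 1 row was called lower after median-of-ratios scaling, after upper-quartile scaling and with no filter, against 2. The other lists had 21 rows lower after quantile normalization, against 13, and 1 row higher with no filter, against 3. With the replicate number as a block, 375 rows were higher and 116 lower, 1 member was lower (the SOX9A adjusted p by limma was 0.0657, and NR2E1, DUSP1, CEBPD, FA2H, ATP1B2A, MAG, ID3 and SYPB were not called, at 0.0543 to 0.0981) and 1 row of the other lists was higher. In that setting 0 pairs of copies passed, but its test flips signs over 8 differences and is too coarse for a single pair to pass the adjustment over 7. Of the bortezomib fish, 0 of 8 matched best the vehicle fish of their own number. Without the 4 pituitary-carrying brains 259 rows were higher and 66 lower, 0 members and 4 rows of the other lists were lower, 0 pairs of copies and 1 pair of co-varying rows passed; fewer fish enter that fit. With a pseudocount of 0.1, 1 pair of copies passed. Leaving out 1 fish gave 369 to 890 rows higher and 116 to 269 lower, 0 to 1 member higher and 0 to 2 lower, 1 to 11 rows of the other lists higher and 8 to 15 lower, and 1 to 3 pairs of copies. The log2 fold changes that turned sign were not called in any fit. They were GFAP at -0.032 after quantile normalization and -0.097 to 0.17 with 1 fish left out, SOX9B at -0.14 to 0.013 with 1 fish left out, and HES5 (3 OF 9) Nfu_g_1_023628 at -0.00095 without the 4 fish. HES5 (2 OF 2) was at -0.0052 after upper-quartile scaling, -0.018 after quantile normalization, -0.19 without the 4 fish and -0.13 to 0.15 with 1 fish left out, and its ratio to HES5 (3 OF 9) Nfu_g_1_023628 at -0.16 to 0.029. SOX9A and GLUL (2 OF 2) kept their sign in every fit run. The cause of these changes was not tested, and no fit left out 4 other fish for comparison.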
